A study of Mus musculus with 8 samples.

Results

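The 46 genes described here encode factors that make ribosomes in the nucleolus, followed in the livers of mice given saline, lipopolysaccharide (LPS, the endotoxin of gram-negative bacteria) or LGK974 and LPS. They were taken by symbol from a list of ribosome assembly and RNA polymerase I genes, and all 46 were found among the 23282 gene rows of the count files. The rows of 579 symbols did not lie beside genomic neighbours, but each of the 46 stood on a row in genomic order. All 46 passed the filter on low counts and were tested, with the lowest count of any of them in any library at 20.

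RNA-seq libraries were made from whole liver of C57BL/6 mice labelled as male and 4 weeks of age. Control mice received saline, endotoxemic mice received 25 mg/kg LPS by intraperitoneal injection, and mice of the LGK974 group received 60 mg/kg LGK974, a small molecule that blocks the secretion of Wnt proteins, with 25 mg/kg LPS. The labels of the LGK974 libraries name only LGK974, so its LPS and both of its doses come from the study's text. LGK974 was given 2 h before LPS in most experiments of the study, and tissue was collected 6 h after LPS. Nothing in the sources says that the libraries of a group came from separate mice, so p-values measure the spread between these libraries, which may be technical.

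Of 8 deposited libraries, endotoxemic 3 held the same counts as endotoxemic 1 on every row, and endotoxemic 4 the same as endotoxemic 2, so each pair was counted as 1 sample and 6 distinct libraries remained, 2 in each group. They held between 9142116 and 15222439 counts. Sex-linked transcripts went against the labels: the control and endotoxemic libraries held 1171 to 3115 counts of Xist, which is transcribed from the inactive X chromosome, and 0 or 1 count of Y-linked genes, whereas the LGK974 libraries held 3 and 7 counts of Xist and 2195 and 1775 counts of Y-linked genes. In every comparison with the LGK974 group, the drug and the sex of the mice therefore cannot be told apart. Hepatocyte transcripts identified the tissue, with 22450 to 84850 counts per 1000000 (CPM) of Alb, the gene for albumin, in the 6 libraries.

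Ribosomes are built in the nucleolus. RNA polymerase I transcribes a long precursor RNA, small nucleolar RNA-protein particles (snoRNPs) of the box C/D and box H/ACA classes methylate it or turn its uridines into pseudouridines, and a large assembly called the small-subunit processome folds and cuts the part that becomes the 40S subunit, while a separate set of helicases, GTPases and scaffold proteins matures the 60S subunit. In liver these factors are known to rise when hepatocytes grow or re-enter the cell cycle, and many of their genes are known targets of Myc.

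The stretch upstream of the start site is shown for the members with the greatest rises in the endotoxemic group, because these genes moved in the same direction in that group. Of the 10 members with the greatest log2 fold change, 4 had a RefSeq window in which the 150 bases before the start held no annotated exon or other start. They lie, in build GRCm38 and all on the + strand, at chr1:59684821-59684970 (Nop58), chr4:45018433-45018582 (Polr1e), chr8:107056727-107056876 (Nip7) and chr19:46075697-46075846 (Nolc1). Capitals mark the letters GGGCGG (the GC box) or CCGGAA (the core of ETS factor sites) on either strand.
Nop58: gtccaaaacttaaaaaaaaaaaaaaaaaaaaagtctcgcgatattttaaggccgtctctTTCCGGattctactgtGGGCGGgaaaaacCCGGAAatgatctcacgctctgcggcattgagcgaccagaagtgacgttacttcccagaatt
Polr1e: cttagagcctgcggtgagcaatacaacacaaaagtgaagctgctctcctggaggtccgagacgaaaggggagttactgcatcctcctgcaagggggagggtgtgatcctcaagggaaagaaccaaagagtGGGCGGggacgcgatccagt
Nip7: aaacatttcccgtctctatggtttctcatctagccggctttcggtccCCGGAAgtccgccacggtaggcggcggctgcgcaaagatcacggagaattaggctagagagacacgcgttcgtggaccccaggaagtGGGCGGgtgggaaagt
Nolc1: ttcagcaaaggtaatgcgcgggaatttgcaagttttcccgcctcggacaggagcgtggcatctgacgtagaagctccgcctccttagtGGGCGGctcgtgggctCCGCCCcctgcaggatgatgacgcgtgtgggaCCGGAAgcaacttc

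Each of the 4 stretches held GGGCGG or its reverse complement, and 3 of them held CCGGAA or its reverse complement. RefSeq windows of 300 bases, from 250 before to 50 after a start, were matched for 41 of the 46 members, and Npm1, Fbl, Rrp12, Bop1 and Rrs1 had none. GGGCGG, searched like the other motifs on both strands and counted once per gene, stood in the windows of 78% of these members, 66.3% of the tested genes and 38.2% of all genes with a window. The same shares were 41.5%, 30.6% and 16.7% for CCGGAA, and 4.88%, 9.63% and 15.7% for TATAAA, the TATA box. CACGTG, the E-box that Myc and Max bind, stood in the windows of 8 members, or 19.5%, against 11.7% of tested genes and 8.09% of all genes. In 3 of the 8 it lay before the start, and these sites are shown with their flanks, the E-box in capitals, from chr6:125131806-125131845 (Nop2, + strand), chr1:34439691-34439730 (Imp4, + strand) and chr11:93885767-93885803 (Utp18, - strand).
Nop2: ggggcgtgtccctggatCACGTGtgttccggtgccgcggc
Imp4: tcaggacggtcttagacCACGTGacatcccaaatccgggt
Utp18: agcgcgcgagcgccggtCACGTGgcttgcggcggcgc

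Endotoxemic livers held more transcript of most of these factors than control livers. By the quasi-likelihood F test of edgeR, with Benjamini-Hochberg adjustment over all 12701 rows tested and a threshold of 0.05, 27 of the 46 members rose and 0 fell, a share of 58.7% beside 20.4% of all rows tested that rose and 23% that fell. The median log2 fold change of the members was 0.84, against 0.01 for all rows tested, and single members ranged from -0.5 to 3.38. Among the 27 that rose, the log2 fold change ran from 0.64 to 3.38 and was at least 2-fold in 18. The endotoxemic libraries lay wholly above the control libraries for 38 members, or wholly below for 1, where 37.9% of all rows tested lay above and 39.2% below. The member median was 0.82 without control replicate 1, 0.75 without control replicate 2, 0.96 without endotoxemic replicate 1 and 0.8 without endotoxemic replicate 2. Over all rows tested the median lay between -0.02 and 0.03 in these fits. Fewer members rose in them, as did a smaller share of all rows tested. Without LGK974 replicate 1 or 2 both were greater. The calls of 11 members (Nolc1, Mybbp1a, Ddx21, Nop58, Wdr43, Heatr1, Rrp9, Rrp12, Nop2, Ddx18 and Nip7) held in all 18 settings tried. In bulk tissue, more RNA per cell and more cells of a type that expresses a gene cannot be told apart.

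**Figure D1:**
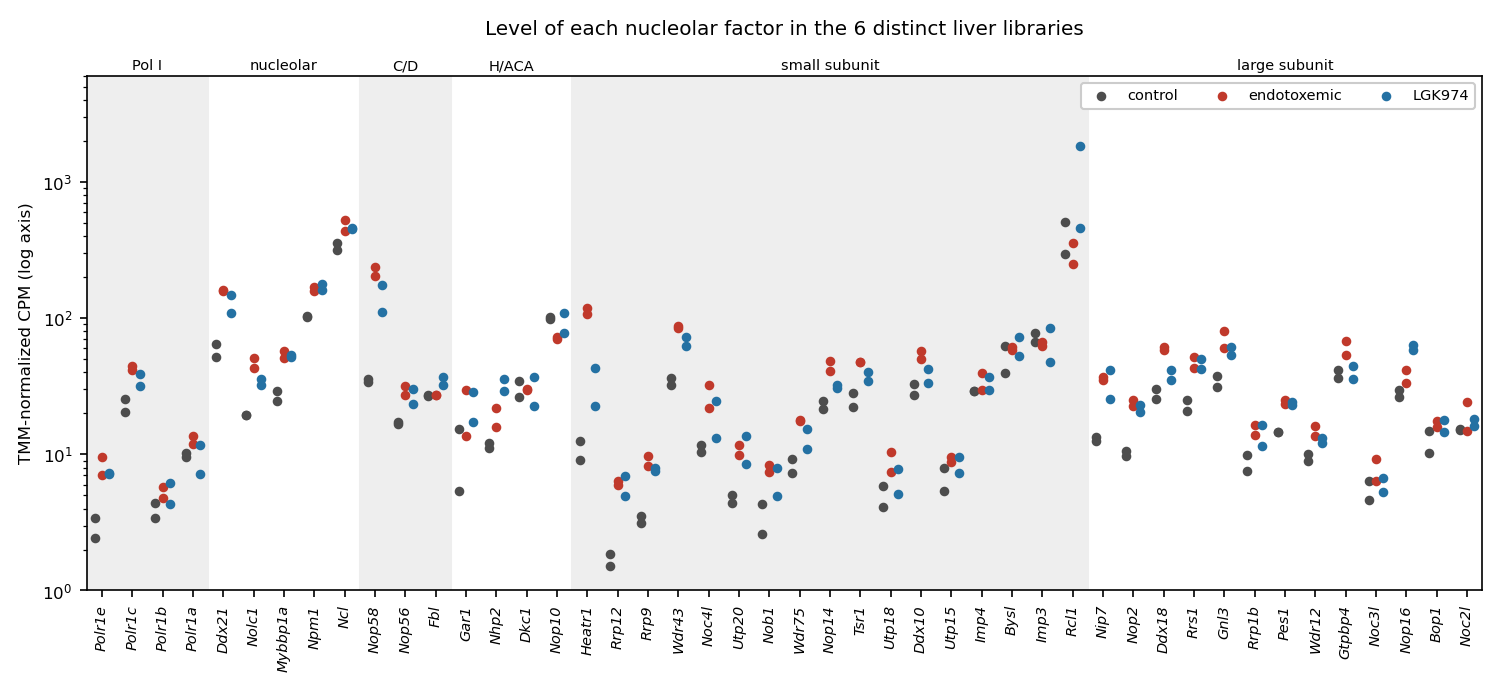
TMM-normalized CPM (log axis) of each of the 46 factors in the 6 distinct libraries, grouped by role along the x axis and, within a role, by the change from control to endotoxemic. Each point is 1 library; Heatr1 and Nop58 show the widest gap between control and endotoxemic points, and 1 LGK974 library of Rcl1 stands at 1849 CPM, apart from the other points of that gene.

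The plot of levels by role shows every member in every library. The mean CPM of the members over the 6 libraries ran from 4.59 to 621.8, with a median of 29.9, and 9 members lay under 10 CPM. Summed over all members, control libraries held 1888 and 1679 CPM, endotoxemic libraries 2730 and 2749 CPM, and LGK974 libraries 4111 and 2442 CPM. Rcl1 alone made up 45% of that sum in LGK974 replicate 1. Without Rcl1 the sums were 1377 and 1382 CPM, 2371 and 2497 CPM, and 2262 and 1979 CPM.

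Heatr1, a large HEAT-repeat protein of the small-subunit processome that also takes part in RNA polymerase I transcription, had the greatest rise of the 46. Control libraries held it at 9.10 and 12.6 CPM, endotoxemic libraries at 119 and 107 CPM, and LGK974 libraries at 43.3 and 22.5 CPM. The 3 groups did not overlap, with the LGK974 libraries between the other groups. The rise from control to endotoxemic was 3.38 on the log2 scale (SE 0.33, adjusted p = 6.14e-05 by edgeR), or 10.4-fold. The gene lies at chr13:12395027-12440289 on the + strand, and 155 exonic bases at its 3′ end are also exon of Lgals8, a gene for a galectin on the opposite strand. Lgals8 stood at 104 and 108 CPM in control, 215 and 186 CPM in endotoxemic, and 168 and 138 CPM in LGK974 libraries, a log2 fold change of 0.92 from control to endotoxemic (adjusted p = 0.00482 by edgeR). These libraries are read from the 3′ end of transcripts and the strand setting of the counting is not given in the sources used here, so reads from the shared stretch cannot be told apart, and the part they have in the values of Heatr1 was not tested.

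Nop58, a scaffold protein of the box C/D snoRNPs, had 33.9 and 35.6 CPM in control, 204 and 236 CPM in endotoxemic, and 174 and 112 CPM in LGK974 libraries. Every library with LPS lay above both control libraries. Its rise from control to endotoxemic was 2.66 on the log2 scale (SE 0.25, adjusted p = 4.86e-05 by edgeR), or 6.32-fold. Its partner Nop56 rose by a log2 fold change of 0.8 (SE 0.23, adjusted p = 0.0193), from 16.7 and 17.3 CPM to 27.5 and 31.8 CPM. Fbl, fibrillarin, the methyltransferase of the same particle, stood at 26.7 and 27.3 CPM in control and 27.2 and 27.4 CPM in endotoxemic libraries. Its log2 fold change was 0.02 (SE 0.2, adjusted p = 0.958), so of the 3 members from this particle 2 rose and 1 did not pass. Its remaining core protein, Snu13 (Nhp2l1 in the files), is among the other pathway genes and rose by 0.81 (SE 0.23, adjusted p = 0.0181).

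Of the 4 core proteins of the box H/ACA snoRNPs, which guide pseudouridine formation and also belong to telomerase, 1 rose. That share of 25% lay near the 20.4% of all rows tested that rose. Nhp2 went from 12.1 and 11.1 CPM to 15.9 and 21.7 CPM, a log2 fold change of 0.7 (SE 0.25, adjusted p = 0.0477 by edgeR). That call was lost with DESeq2 (adjusted p = 0.0645), without either control replicate and without endotoxemic replicate 2, with an adjusted p of up to 0.301. Dkc1, dyskerin, the pseudouridine synthase itself, had 26.5 and 34.7 CPM in control and 30 and 29.9 CPM in endotoxemic libraries, a log2 fold change of -0.03 (SE 0.27, adjusted p = 0.932). Nop10 had 99.5 and 103 CPM in control and 72.7 and 70.8 CPM in endotoxemic libraries. It was the 1 member whose endotoxemic libraries lay wholly below the control libraries, at a log2 fold change of -0.5 (SE 0.21) that did not pass over all libraries (adjusted p = 0.086), although it passed without LGK974 replicate 1 or 2. Gar1 had 15.3 and 5.36 CPM in control and 29.7 and 13.8 CPM in endotoxemic libraries, and the groups overlapped (adjusted p = 0.12). The number 1 library of Gar1 was the higher one in each group. Its log2 fold change of 1.09 (SE 0.52) moved to 2.01 without control replicate 1, where it passed (adjusted p = 0.0333), to 0.51 without control replicate 2 and to 0.48 without endotoxemic replicate 1, and it also passed with no filter on low counts and without LGK974 replicate 1 or 2.

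**Figure D2:**
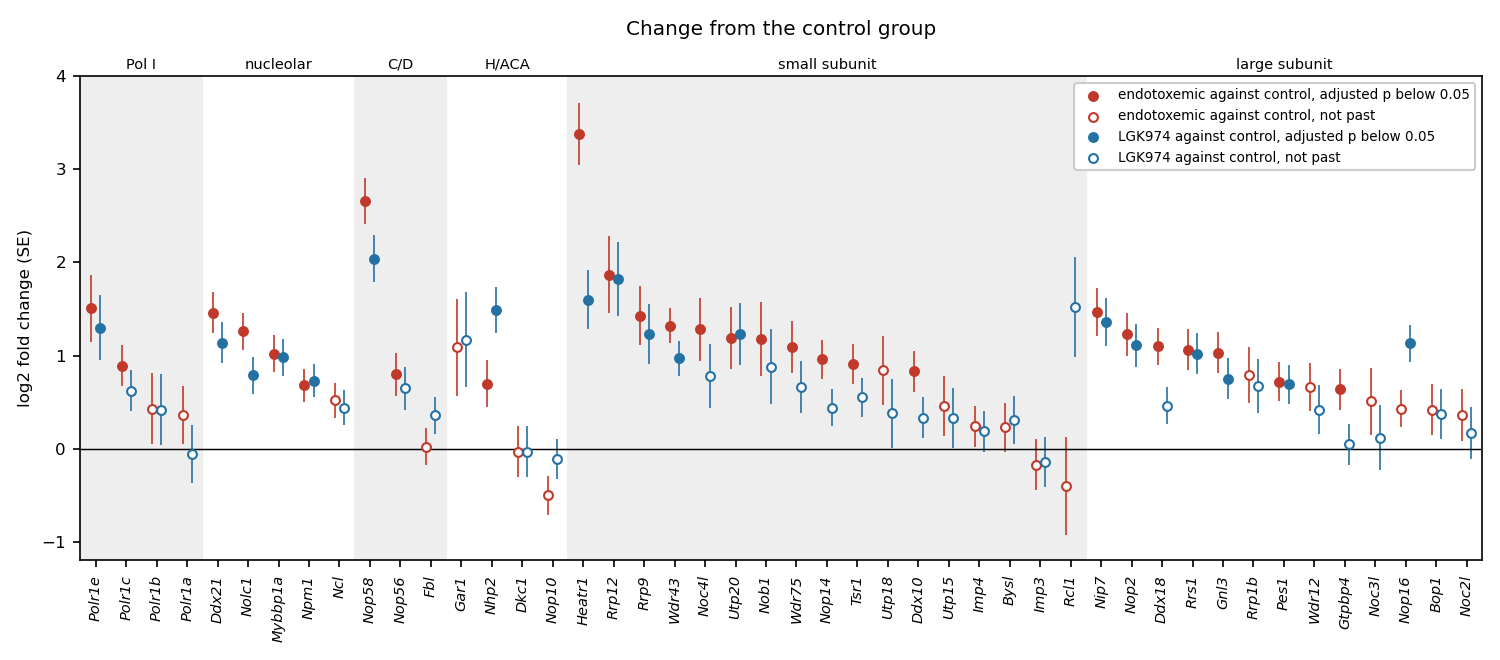
Log2 fold change from control, with its standard error as a vertical line, of each factor in the endotoxemic group (red) and the LGK974 group (blue), both against the same control libraries. Filled points passed the adjusted p threshold of 0.05 in edgeR; 27 endotoxemic and 18 LGK974 points are filled, and each of them lies above 0.

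The small-subunit processome and the factors of 40S maturation gave 11 rises among 17 members, with a median log2 fold change of 0.96. After Heatr1 the greatest was Rrp12, a factor of pre-40S export, at 1.86 and 1.5 CPM in control and 6.33 and 5.97 CPM in endotoxemic libraries, a log2 fold change of 1.87 (SE 0.41, adjusted p = 0.00527 by edgeR) on counts of 20 to 58. Rrp9, a protein of the U3 snoRNP, rose by 1.43, and Wdr43, a subunit of the first complex to join the nascent precursor RNA, by 1.32. Wdr75, of the same complex as Wdr43 and Heatr1, rose by 1.09, while Utp15, also of that complex, had 7.98 and 5.43 CPM in control and 9.6 and 8.74 CPM in endotoxemic libraries and did not pass (adjusted p = 0.281). Noc4l rose by 1.28 and Nop14, which binds it, by 0.96. The late processome factor Utp20 rose by 1.19, the endonuclease Nob1, which makes the 3′ end of 18S rRNA, by 1.18, the GTPase-like protein Tsr1 by 0.91 and the helicase Ddx10 by 0.83.

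The 6 small-subunit members that did not pass were Utp15, Utp18, Imp3, Imp4, Rcl1 and Bysl. Utp18 had a log2 fold change of 0.84 at an adjusted p of 0.0971. Imp3 and Imp4, which with the protein Mphosph10 form a unit of the U3 snoRNP, had log2 fold changes of -0.17 and 0.24 (SE 0.27 and 0.22), whereas Mphosph10 rose by 1.96 (SE 0.22, adjusted p = 0.000133), from 12.5 and 11.8 CPM to 44.1 and 50.3 CPM. Bysl, bystin, shares 361 exonic bases near its 3′ end with Ccnd3 on the opposite strand. Bysl had 62.6 and 39.8 CPM in control and 61.5 and 58.4 CPM in endotoxemic libraries, and Ccnd3 had 52.6 and 34.1 CPM, then 42.7 and 37.8 CPM. Their reads cannot be told apart in the shared stretch.

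Of the 13 members that mature the 60S subunit, 7 rose, with a median log2 fold change of 0.72. Nip7, a small protein of pre-60S particles, stood at 13.5 and 12.6 CPM in control and 36.9 and 35.2 CPM in endotoxemic libraries, and rose by 1.47 on the log2 scale (SE 0.26, adjusted p = 0.00199 by edgeR). Nop2, an rRNA cytosine methyltransferase, had 9.65 and 10.6 CPM and then 22.7 and 24.9 CPM, a rise of 1.23 (SE 0.23, adjusted p = 0.00245). The groups of both genes lay far apart beside the gap between their replicates. Ddx18, a helicase, rose by 1.1, Rrs1, which brings the 5S RNA particle into the pre-60S subunit, by 1.06, Gnl3, the GTPase nucleostemin, by 1.03, and Gtpbp4, a GTPase, by 0.64. Gtpbp4 has 7 annotated pseudogenes named after it, and reads from them may be counted with it.

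Of the PeBoW complex, formed by Pes1, Bop1 and Wdr12 and needed to process the 60S precursor, Pes1 alone passed the threshold. The log2 fold changes of Pes1 and Wdr12, 0.72 and 0.66 (SE 0.21 and 0.26), hardly differed. Pes1 rose by 0.72 (adjusted p = 0.0228 by edgeR), from 14.7 and 14.6 CPM to 24.9 and 23.5 CPM. Wdr12 had 8.91 and 10 CPM in control and 13.8 and 16.2 CPM in endotoxemic libraries (adjusted p = 0.0647), and Bop1 had 10.2 and 14.8 CPM and then 17.6 and 16 CPM (adjusted p = 0.244). For each of the 3 the endotoxemic libraries lay above the control libraries. Noc2l, Noc3l, Nop16 and Rrp1b did not pass either, with log2 fold changes of 0.36, 0.51, 0.43 and 0.79. Noc2l shares 598 exonic bases near its 3′ end with Samd11 on the opposite strand, and its 6 values, from 14.7 to 24.4 CPM, lay close above those of Samd11, from 10.8 to 21.9 CPM.

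Among the abundant nucleolar proteins, 4 of 5 rose. Ddx21, a helicase that acts in both transcription and processing of rRNA, had 64.5 and 52 CPM in control, 160 and 160 CPM in endotoxemic and 148 and 110 CPM in LGK974 libraries, and rose by 1.46 (SE 0.22, adjusted p = 0.000728 by edgeR). Nolc1, a chaperone of snoRNPs, had 19.6 CPM in each control library and 43 and 51.1 CPM in endotoxemic libraries, and rose by 1.26 (SE 0.2, adjusted p = 0.00113). Mybbp1a rose by 1.02 and Npm1, the histone and ribosome chaperone nucleophosmin, by 0.68, from 103 and 102 CPM to 159 and 169 CPM. Ncl, nucleolin, had 317 and 358 CPM in control and 441 and 527 CPM in endotoxemic libraries. Its log2 fold change of 0.52 (SE 0.19) missed the threshold at an adjusted p of 0.0523, and it passed in 12 of the 18 settings tried.

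Of the 4 subunits of RNA polymerase I, 2 rose. Polr1e, which helps the enzyme to start, had 2.41 and 3.4 CPM in control, 7.09 and 9.59 CPM in endotoxemic, and 7.17 and 7.31 CPM in LGK974 libraries, and rose by 1.51 (SE 0.36, adjusted p = 0.00832 by edgeR). Polr1c, a subunit shared with RNA polymerase III, went from 20.6 and 25.6 CPM to 41.7 and 44.2 CPM and rose by 0.89 (SE 0.22, adjusted p = 0.00945). The catalytic subunits Polr1a and Polr1b had log2 fold changes of 0.36 (SE 0.31, adjusted p = 0.375) and 0.43 (SE 0.38, adjusted p = 0.394), on control counts of 103 and 157 for Polr1a and 37 and 67 for Polr1b. In both, the endotoxemic libraries lay above the control libraries. The row Rn45s, the rRNA precursor itself, held 7.17% and 7.82% of counts in control, 8.12% and 8.26% in endotoxemic, and 4.8% and 9.38% in LGK974 libraries. Its log2 fold change was 0.09 from control to endotoxemic (SE 0.28, adjusted p = 0.809). Libraries primed at poly(A) tails, as these are, are not designed to measure rRNA.

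Beside these rises, other transcripts of the tissue moved as well. Neutrophil markers on rows in genomic order summed to 0 and 0.196 CPM in control, 45.2 and 41.7 CPM in endotoxemic, and 39.6 and 32.4 CPM in LGK974 libraries, and all 4 tested on such rows (Csf3r, Ngp, Ltf and Camp) rose from control to endotoxemic. A further 3 (S100a8, S100a9 and Cxcr2) stand on rows out of genomic order, where a symbol may not name the gene that was counted, and their values are left out here. Of 7 hepatocyte markers tested on rows in order, 6 fell and 1 rose, with Alb at a log2 fold change of -1.17; Ahsg and Serpina1a stand on rows out of order. Markers of cell division summed to 31.8 and 27.3 CPM in control, 43.3 and 39.9 CPM in endotoxemic, and 48.2 and 38.7 CPM in LGK974 libraries, with 1 of 7 tested rising and 1 falling. Of 8 Kupffer cell and macrophage markers on rows in order 1 rose and 3 fell (Cd5l and Csf1r stand on rows out of order), and of 8 sinusoidal endothelial cell markers 1 rose and 4 fell. Among stellate cell markers 1 of 7 rose and 4 fell, and among lymphocyte markers 1 of 3 rose. The part of these changes in the values of the nucleolar factors was not tested.

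**Figure D3:**
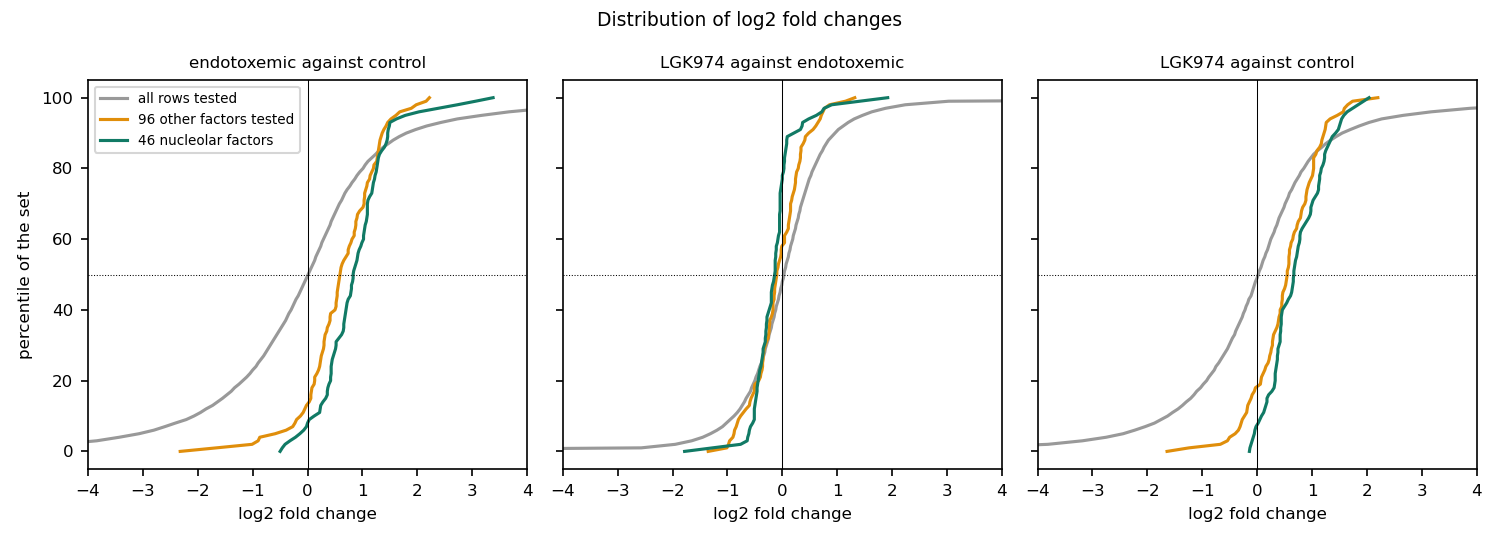
Percentile (y axis) against log2 fold change (x axis) in the 3 comparisons for the 46 nucleolar factors, 96 other ribosome biogenesis genes that were tested, and all rows tested. The curve of the nucleolar factors crosses its median at 0.84 for endotoxemic against control, -0.14 for LGK974 against endotoxemic and 0.67 for LGK974 against control, where all rows cross at 0.01, 0.03 and 0.02.

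The rest of the pathway was read from 97 other genes, of which 96 were tested. From control to endotoxemic 40 of them rose and 3 fell, or 41.7% and 3.12%, beside 20.4% and 23% of all rows tested. Their median log2 fold change was 0.6. Fewer of them rose when 1 control or endotoxemic library was left out, as did a smaller share of all rows tested. By role, 6 of 12 other RNA polymerase I and initiation factors rose, 11 of 35 other small-subunit factors rose and 2 fell, 19 of 41 other large-subunit factors rose and 1 fell, and 4 of 8 tested genes of snoRNP assembly and modification rose. Eif6, which keeps 60S subunits from joining too early, had 40.7 and 34.6 CPM in control, 181 and 155 CPM in endotoxemic, and 197 and 148 CPM in LGK974 libraries, a rise of 2.16 from control to endotoxemic (SE 0.22, adjusted p = 7.88e-05 by edgeR). Taf1c, a subunit of the initiation factor SL1, rose by 2.22 (SE 0.65, adjusted p = 0.0219), but its 6 values, 0.928 and 0.458, 3.16 and 3.20, and 2.11 and 1.15 CPM, were nearly those of Dnaaf1, with which it shares 584 exonic bases. On the log2 scale, the 3 that fell were Nop9, which fell by 2.32 (SE 0.2, adjusted p = 2.68e-05), Rrp7a, which fell by 0.94 (SE 0.24, adjusted p = 0.0117), and Wdr18, which fell by 0.89 (SE 0.25, adjusted p = 0.0176).

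Nop9 had 480 and 451 CPM in control and 101 and 85.4 CPM in endotoxemic libraries, and the gene on its opposite strand, Cideb, a lipid droplet protein of hepatocytes with which it shares 1136 exonic bases, had 462 and 439 CPM and then 87.1 and 68.1 CPM. Rrp7a had 40.4 and 31.6 CPM and then 20.8 and 16.6 CPM, against 40 and 29.5 CPM and then 16.9 and 14.5 CPM for Serhl, with which it shares 678 exonic bases on the opposite strand. The falls of Nop9 and Rrp7a cannot be told apart from those of their partners. Exon sharing with another tested gene within 1000 bases of the 3′ end touched 9 of the 46 members and 19 of the other genes. With those genes set aside, a count chosen after seeing the data, 22 of 37 members rose and 0 fell, and 33 of 77 other genes rose and 1 fell.

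The genes of 7 members also carry snoRNA genes within them on the same strand, 21 in all: Ncl, Nop56, Nop58, Dkc1, Wdr43, Tsr1 and Gnl3. That is 15.2% of the members, against 1.27% of 21951 protein-coding genes in the annotation. From control to endotoxemic, 5 of these 7 and 22 of the 39 other members rose. Nop56 holds 5 of the snoRNA genes, among them Snord57 and Snord110, and Nop58 holds 4, among them Snord11 and Snord70.

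In livers given LGK974 and LPS, 1 of the 46 members differed from the endotoxemic group. Heatr1 fell by 1.78 on the log2 scale (SE 0.31, adjusted p = 0.0161 by edgeR), from 119 and 107 CPM to 43.3 and 22.5 CPM, and 0 members rose, beside 5.62% of all rows tested that passed, 2.8% higher and 2.82% lower. Without endotoxemic replicate 1 or without endotoxemic replicate 2 the call of Heatr1 was lost, with an adjusted p of up to 0.118, while its log2 fold change stayed between -2.32 and -1.38 over the 18 settings. Lgals8, which shares its 3′ end, had a log2 fold change of -0.39 (adjusted p = 0.272). The median over the 46 members was -0.14 on the log2 scale, against 0.03 for all rows tested. Without LGK974 replicate 1 the member median was -0.33 and that of all rows tested 0. In the main fit 10 members had an unadjusted p under 0.05 by edgeR, a share of 21.7% beside 22.9% of all rows tested. The LGK974 libraries lay wholly below the endotoxemic libraries for 15 members and wholly above for 5, where 26% and 26.5% of all rows tested did so.

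**Figure D4:**
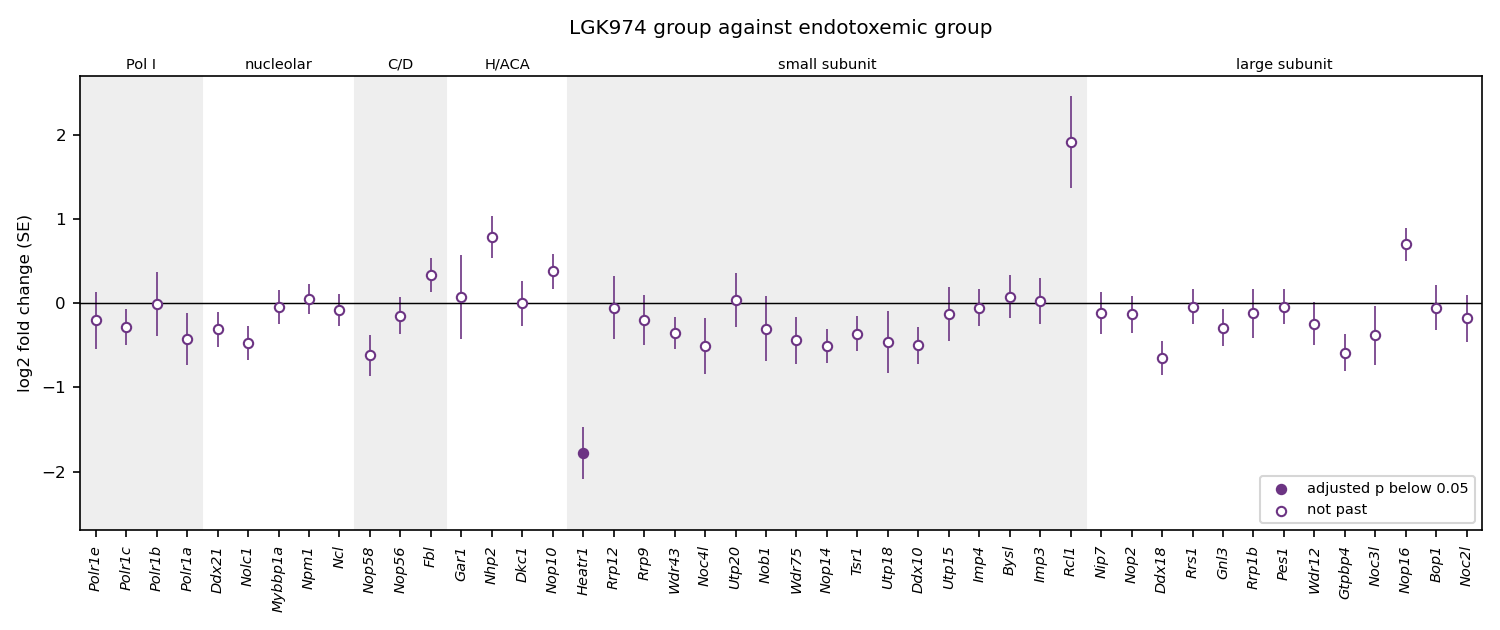
Log2 fold change of each factor in the LGK974 group against the endotoxemic group, with its standard error as a vertical line, in the order of the plot of changes from control. Heatr1, at -1.78, is the 1 filled point, past the adjusted p threshold of 0.05 in edgeR; Rcl1 lies at 1.92 with a wide error.

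The members nearest to a call lay on both sides. Ddx18 had 58.6 and 61.7 CPM in endotoxemic and 41.6 and 35.3 CPM in LGK974 libraries, a log2 fold change of -0.65 (SE 0.2, adjusted p = 0.0963 by edgeR). Nop58 had a log2 fold change of -0.62 (SE 0.24, adjusted p = 0.16) and Gtpbp4 of -0.59 (SE 0.22, adjusted p = 0.145). Over the 18 settings these values ran from -0.77 to -0.53 (Ddx18), -0.97 to -0.33 (Nop58) and -0.77 to -0.41 (Gtpbp4). The median of the 46 members was -0.33 without LGK974 replicate 1 and -0.13 without LGK974 replicate 2, against 0 for all rows tested in each. On the higher side, Rcl1 was nearest to a call (adjusted p = 0.0767), followed by Nop16, a factor of pre-60S particles, and Nhp2. Nhp2 had 15.9 and 21.7 CPM in endotoxemic and 35.7 and 29.4 CPM in LGK974 libraries, a log2 fold change of 0.79 (SE 0.25, adjusted p = 0.0964), and Nop16 had 41.6 and 33.6 CPM and then 64 and 58.3 CPM, a log2 fold change of 0.7 (SE 0.2, adjusted p = 0.0785). In both genes the LGK974 libraries lay above the endotoxemic libraries.

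Rcl1, a cyclase-like protein that takes part in cutting the precursor of 18S rRNA, was set apart by 1 library. It had 511 and 296 CPM in control, 360 and 252 CPM in endotoxemic, and 1849 and 463 CPM in LGK974 libraries, the 1849 CPM resting on 24488 counts. Its log2 fold change of 1.92 from endotoxemic to LGK974 (SE 0.55, adjusted p = 0.0767 by edgeR) did not pass, ranged from 0.6 to 2.6 over the settings tried, and passed without LGK974 replicate 2, with no filter on low counts and with the identical libraries treated as separate samples. The number 1 library of Rcl1 was the higher one in each group. Of the LGK974 libraries, replicate 2 lay within the range of the control libraries and replicate 1 above it.

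**Figure D5:**
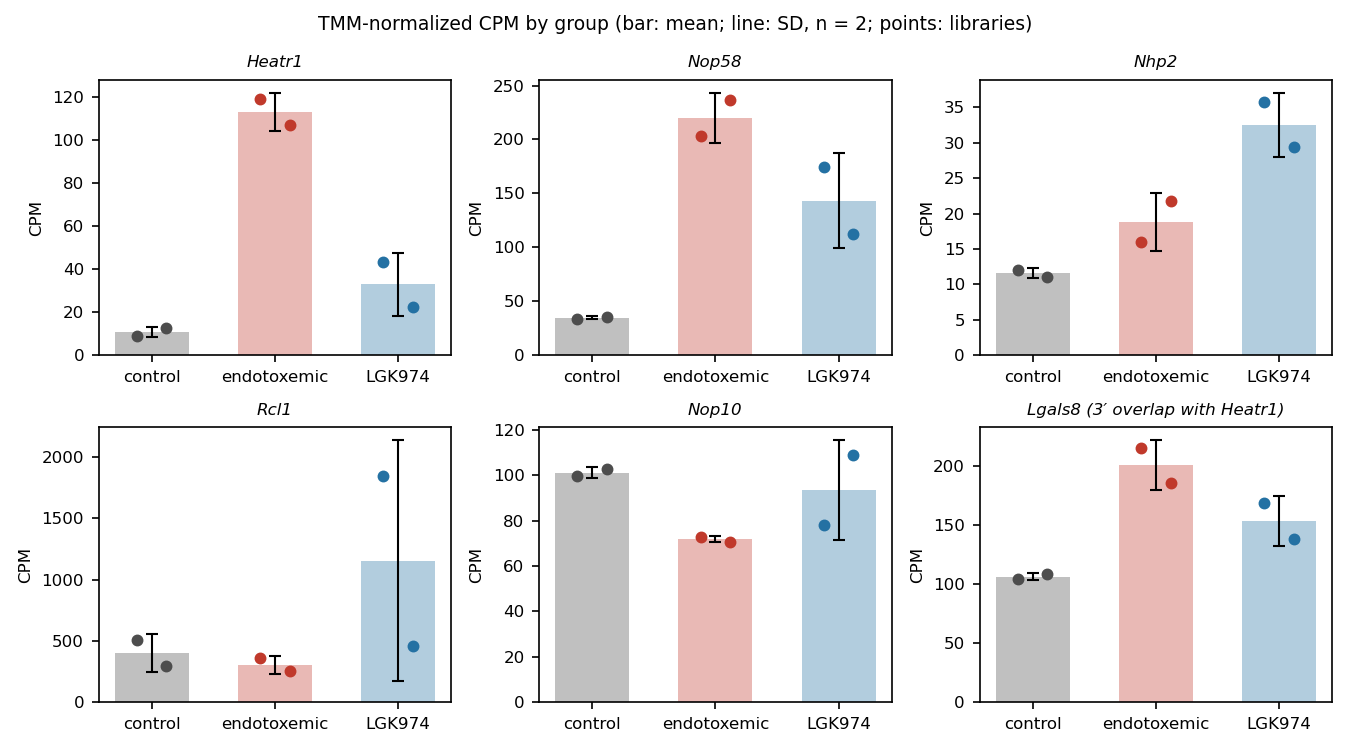
TMM-normalized CPM of 5 nucleolar factors and of Lgals8, which shares exonic bases with Heatr1, by group. Bars are group means, vertical lines the SD (n = 2) and points the single libraries; Heatr1 falls from 119 and 107 CPM to 43.3 and 22.5 CPM with LGK974, and the LGK974 libraries of Rcl1 differ from each other by more than those of the other genes shown.

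Against the control group, livers given LGK974 and LPS also held more transcript of these factors. Of the 46 members 18 rose and 0 fell, a share of 39.1% beside 16.4% of all rows tested that rose and 17.7% that fell. The median log2 fold change was 0.67, against 0.02 for all rows tested. The LGK974 libraries lay wholly above the control libraries for 34 members, where 33.8% of all rows tested did so. The member median was 0.71 without control replicate 1, 0.67 without control replicate 2, 0.49 without LGK974 replicate 1 and 0.82 without LGK974 replicate 2. Over all rows tested the median lay between -0.02 and 0.06 in these fits. Fewer members rose when 1 control library was left out, as did a smaller share of all rows tested. The comparison uses the same control libraries as that of the endotoxemic group, so the values of each are set side by side and not counted as separate support.

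Nop58 rose by 2.04 from control to LGK974 (SE 0.25, adjusted p = 0.000272 by edgeR), beside 2.66 from control to endotoxemic. Rrp12 rose by 1.82 (SE 0.4, adjusted p = 0.00743) beside 1.87, and Nip7 by 1.36 (SE 0.26, adjusted p = 0.00386) beside 1.47. Polr1e rose by 1.3 (SE 0.35, adjusted p = 0.0196) beside 1.51, and Ddx21 by 1.14 (SE 0.22, adjusted p = 0.00363) beside 1.46. Heatr1 rose by 1.6 (SE 0.32, adjusted p = 0.00469) beside 3.38. The calls of Heatr1 and Polr1e were lost without control replicate 1 (adjusted p of up to 0.0572 and 0.128 over the settings), and those of Rrp12 and Ddx21 without control replicate 2 (up to 0.0597 and 0.0558). Nhp2 rose by 1.49 (SE 0.25, adjusted p = 0.00184) beside 0.7, and Nop16 by 1.13 (SE 0.2, adjusted p = 0.0028) beside a value of 0.43 that did not pass.

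By role, the rises from control to LGK974 were 1 of 4 RNA polymerase I subunits, 4 of 5 abundant nucleolar proteins, 1 of 3 box C/D and 1 of 4 box H/ACA core proteins, 5 of 17 small-subunit factors and 6 of 13 large-subunit factors. Shares ran from 25% of RNA polymerase I and box H/ACA members to 80% of abundant nucleolar proteins, beside 16.4% of all rows tested. After Rrp12 and Heatr1, the small-subunit members that rose were Rrp9 and Utp20, each by 1.23, and Wdr43 by 0.97. After Nip7 and Nop16 the large-subunit members were Nop2 by 1.11, Rrs1 by 1.02, Gnl3 by 0.75 and Pes1 by 0.69. Of the abundant nucleolar proteins other than Ddx21, Mybbp1a rose by 0.98 (SE 0.2, adjusted p = 0.00508 by edgeR), Nolc1 by 0.79 and Npm1 by 0.73. Apart from those of Nop58, Nhp2, Nop16 and Nip7, each of the 18 calls was lost without control replicate 1, without control replicate 2 or in both cases. Nop56 and Polr1c lay just outside, with adjusted p of 0.053 and 0.0538. Fbl, at 37 and 32.2 CPM in LGK974 libraries against 26.7 and 27.3 CPM in control, had a log2 fold change of 0.36 (SE 0.2, adjusted p = 0.191), and the groups did not overlap. Dkc1, at 37.1 and 22.8 CPM, and Nop10, at 78.1 and 109 CPM, each had LGK974 libraries on either side of a control library, with log2 fold changes of -0.03 and -0.11.

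Of the 96 other genes tested, 0 rose and 0 fell from endotoxemic to LGK974 by edgeR, with 21 at an unadjusted p under 0.05 (21.9% beside 22.9% of all rows tested), and DESeq2 called 1 higher and 2 lower. Leaving out LGK974 replicate 1 or 2 gave calls in both directions, with a larger share of all rows tested called as well. From control to LGK974, 32 rose and 1 fell, or 33.3% and 1.04%, beside 16.4% and 17.7% of all rows tested. Leaving out 1 control library lowered the number that rose, as it did over all rows tested. Without LGK974 replicate 2 both were greater. Eif6 rose by 2.2 (SE 0.22, adjusted p = 1e-04 by edgeR), Gnl2, a GTPase of pre-60S export, by 1.72 (SE 0.26, adjusted p = 0.00103) and Ftsj3, an rRNA methyltransferase, by 1.58 (SE 0.21, adjusted p = 0.000514). Gnl2 shares 43 exonic bases near its 3′ end with Dnali1 on the opposite strand, which rose by 2.05 (adjusted p = 0.000466 by edgeR). Reads from that shared stretch cannot be told apart. The 1 that fell was Nop9, with a log2 fold change of -1.64 (SE 0.19, adjusted p = 0.000221), whose reads cannot be told apart from those of Cideb.

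Genes of the Myc network, whose proteins bind the E-box in many promoters of ribosome biogenesis genes, did not move as 1 group. Myc had 2.32 and 2.35 CPM in control, 6 and 1.39 CPM in endotoxemic, and 3.93 and 2.23 CPM in LGK974 libraries, a log2 fold change of 0.66 from control to endotoxemic (SE 0.66, adjusted p = 0.454 by edgeR). Max, the partner with which Myc binds DNA, had 24 and 23.6 CPM, 81.8 and 67.5 CPM, and 35.6 and 33.6 CPM, rising by 1.65 from control to endotoxemic (SE 0.2, adjusted p = 0.000203) and falling from endotoxemic to LGK974, with a log2 fold change of -1.11 (SE 0.2, adjusted p = 0.0169). Mxd1, a partner of Max that represses transcription, rose by 2.13 from control to endotoxemic (SE 0.45, adjusted p = 0.00454). Mycl fell by 3.63 (SE 0.5, adjusted p = 0.000443), from 8.45 and 7.84 CPM to 0.546 and 0.746 CPM, and Mycn was too low to be tested. Mxd4 and Mnt, which also pair with Max, had log2 fold changes of -0.18 (SE 0.37, adjusted p = 0.716) and -0.28 (SE 0.29, adjusted p = 0.457) from control to endotoxemic.

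In the comparison of LGK974 with the endotoxemic group, markers of other cell types on rows in genomic order gave few calls: 0 of 4 neutrophil, 0 of 7 hepatocyte, 0 of 3 lymphocyte and 0 of 7 cell division markers passed. Clec4f of resident Kupffer cells, 1 of 8 Kupffer cell and macrophage markers, fell from 21.4 and 18.3 CPM in endotoxemic to 9.06 and 7.11 CPM in LGK974 libraries. Clec4g, 1 of 8 sinusoidal endothelial cell markers, fell by 2.19 on the log2 scale (adjusted p = 0.0163 by edgeR), and Col1a1, 1 of 7 stellate cell markers, rose by 1.59 (adjusted p = 0.0362). The part of these differences in the values of the nucleolar factors was not tested.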

How the data were processed

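Total RNA of mouse liver (500 ng per library) was made into 3′-end libraries with the Lexogen QuantSeq kit, and the authors deposited raw counts per gene symbol, 1 file per library. Their processing notes name Bowtie2, edgeR and build mm10; the counting program, annotation and strand setting are not given in the sources used here. Identical libraries were counted once (6 of 8). Counts (9142116 to 15222439 per distinct library; the floor of 3 counts is 0.197 to 0.328 CPM, counting error only) were filtered with filterByExpr, scaled by TMM and tested with the quasi-likelihood F test of edgeR 4.0.16 in R 4.3.3, fitting all 3 groups together on 12701 rows with Benjamini-Hochberg adjustment over all of them. SE is the log2 fold change divided by the square root of F. CPM are TMM-normalized. DESeq2 1.42.0 and 11 other kinds of alternative are given in the closing section.

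The members and gene lists were chosen with earlier results of these data known. Named with full statistics were, per role and comparison, the 2 members with the greatest fold change past the threshold, all snoRNP and RNA polymerase I members and the members that passed between LGK974 and endotoxemic groups; of the other genes, the 3 greatest rises and falls and the Myc family. A row was out of order when its symbol lay over 2 Mb from its neighbours. Positions are from GENCODE for GRCm38 and promoter windows from RefSeq GRCm38.p6. The same test on data simulated for endotoxemic against control (12701 rows, 10 runs) called 15% of genes changed 2-fold and 71.6% of those changed 4-fold, and 10.2% of calls were false. In each run 200 rows were changed, whereas 43.4% of all rows tested passed in the data. The simulated shares therefore do not measure the power or the false calls of the comparison itself.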

Additional observations from a re-analysis of the deposited data

How the results depend on the processing

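Over 17 alternatives no call of a member changed direction. Of the 27 members that rose from control to endotoxemic, 11 passed in all 18 settings (Nolc1, Mybbp1a, Ddx21, Nop58, Wdr43, Heatr1, Rrp9, Rrp12, Nop2, Ddx18 and Nip7); of the 18 from control to LGK974, 4 did (Nop58, Nhp2, Nop16 and Nip7). With 2 libraries a group, a 2-fold change was called in 15% of simulated cases in which 200 rows changed. In the data 43.4% of all rows tested passed from control to endotoxemic, so that share does not measure the power there. A member that did not pass may still differ. Leaving out 1 library gave 15 to 32 members higher and 0 to 1 lower from control to endotoxemic, 8 to 28 higher and 0 to 1 lower (Imp3, without LGK974 replicate 1) from control to LGK974, and 0 to 3 higher and 0 to 5 lower from endotoxemic to LGK974; the member medians were 0.75 to 0.96, 0.49 to 0.82 and -0.33 to -0.13. Where an arm was left with 1 library, that library was taken to vary like the others. The share of all rows tested that was called moved between these fits as well. Of the other ribosome biogenesis genes, 20 to 48 were higher and 1 to 3 lower, 8 to 49 higher and 1 to 2 lower, and 0 to 3 higher and 0 to 6 lower.

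The endotoxemic median was 0.88 with no filter on low counts, 0.87 with total counts and 0.87 without Rn45s. With the identical libraries treated as separate samples, 1 member was lower from control to endotoxemic, beside 31.3% of all rows tested. From control to LGK974, 28 members were higher, beside 22.6% of all rows tested. From endotoxemic to LGK974, 4 members were higher and 8 lower, beside 13.6% and 12.3% of all rows tested. Of the other genes, 2 were lower from control to LGK974, and 10 were higher and 16 lower from endotoxemic to LGK974. Fitting only the groups compared, 1 member, Nop10, was lower from control to endotoxemic. From endotoxemic to LGK974, no filter gave 1 member (Rcl1) and 2 other genes higher and 3 other genes lower, total counts 2 other genes lower, and DESeq2 1 other gene higher and 2 lower. With genes that share exonic bases at the 3′ end left out, chosen after seeing the data, 0 members were lower from endotoxemic to LGK974, and 1 and 0 other genes were lower from control to endotoxemic and from control to LGK974. The cause of these shifts was not tested. With at least 10 counts in every library, relative log expression size factors, rows out of genomic order left out or symbols reassigned, 27 to 28 members were higher from control to endotoxemic, 18 to 20 from control to LGK974, and 0 were higher and 1 lower from endotoxemic to LGK974.

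The correlation of same-numbered deviations was 0.21 for control with endotoxemic, -0.018 for control with LGK974 and 0.064 for endotoxemic with LGK974. With 2 numbers in a group, these values cannot tell whether replicate numbers pair the samples. With the replicate block, 27 members were higher from control to endotoxemic, of which 25 were among the 27 without it (Nhp2 and Nob1 lost, Gar1 and Ncl gained), 20 from control to LGK974, and 1 (Rcl1) from endotoxemic to LGK974.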
